A study of Mus musculus with 2 samples.

Results

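The genes described here carry cholesterol and fatty acid synthesis and its control. They are 30 genes taken by name from the authors' table of 23370 genes with an unambiguous symbol, and all 30 were found. The study grew ES-D3 cells (CRL-1934, strain 129S2/SvPas), an established line of mouse embryonic stem cells, and asked how expression differs in a microfluidic chamber with minimal perfusion. There were 2 groups of 1 array each. One culture was a microchamber and the other a 6-well plate. Both were seeded at 20000 cells per square centimetre, harvested after 3 days, and given medium with LIF (leukaemia inhibitory factor) at 1000 U and serum at 15%. The labels name no genotype or drug that differed between them, and all values come from 1 line. Total RNA was hybridised to Affymetrix Mouse Gene 2.0 ST arrays, whose probes lie along the exons of each transcript.

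Cells make cholesterol from acetyl-CoA through mevalonate, farnesyl pyrophosphate, squalene and lanosterol, and they make fatty acids from the same acetyl-CoA. Transcription of both routes is driven by the sterol regulatory element binding proteins (SREBPs), which stay in the endoplasmic reticulum with their escort SCAP. INSIG proteins hold this complex there when sterol is plentiful. When sterol is scarce, the SREBP is cut, enters the nucleus and binds sterol regulatory elements, often beside a site for the factor NF-Y. Proliferating cells in culture make sterol and also take it from serum lipoproteins.

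Values are log2 RMA values, a scale on which 1 unit is a 2-fold difference, and every difference is microchamber minus 6-well plate. With 1 array per group there is no replicate and no test of the culture condition, so each value describes these 2 arrays. In bulk RNA, fewer cells of a type and less RNA per cell cannot be told apart. A gene was kept when either array reached the 20th percentile of probe sets with 1 symbol, which was 5.18 on the microchamber array and 5.17 on the plate array. This left 19099 genes, and all 30 lipid synthesis genes were among them. Among the 19099 genes the median difference was -0.01 and the middle 95% lay between -0.61 and 0.58. For 870 genes with 2 or more probe sets past that limit, the differences of single probe sets had a within-gene SD of 0.20. This SD measures disagreement within the pair of arrays, not between cultures. All 12 pluripotency markers of the labelled cell type were past this low limit, as were all 11 measured endoderm markers, so passing it does not identify the cells. The pluripotency markers lay between 6.27 and 12.81 on the microchamber array and between 6.57 and 12.58 on the plate array, and the endoderm markers between 5.51 and 8.57 on the microchamber array and between 5.59 and 7.09 on the plate array. Nanog, a pluripotency factor, had 12.17 on the microchamber array and 12.10 on the plate array, the smallest difference of the 12. Pou5f1 had 8.10 on the microchamber array and 7.74 on the plate array. Sox2 had 12.11 on the microchamber array and 11.86 on the plate array. Klf2 was furthest from 0, with a difference of 0.81.

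Most of the lipid synthesis genes were lower in the microchamber by a small amount. Of the 30 genes, 27 lay below 0, against 52.3% of all genes past the filter. Lower by more than the within-gene SD were 17 of the 30, and none was higher by more than it. The remaining genes, of either sign, lay within that SD of 0. At least 1.2-fold lower were 15 of the 30, against 14.1% of all genes, and at least 1.5-fold lower were 3, against 2.77%. None was 1.2-fold higher, against 11.5% of all genes, and none was 2-fold lower, against 0.445%. The median of the 30 differences was -0.26, and the lowest and highest were -0.70 and 0.13. Their values ran between 6.75 and 11.76 on the microchamber array and between 7.09 and 11.64 on the plate array, so all lay well over the low-signal limit. Differences spread more widely at such levels. Among the 12141 genes with either array at or above the median, 54.0% lay below 0, 20.3% were at least 1.2-fold lower and 4.32% at least 1.5-fold lower.

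**Figure D1:**
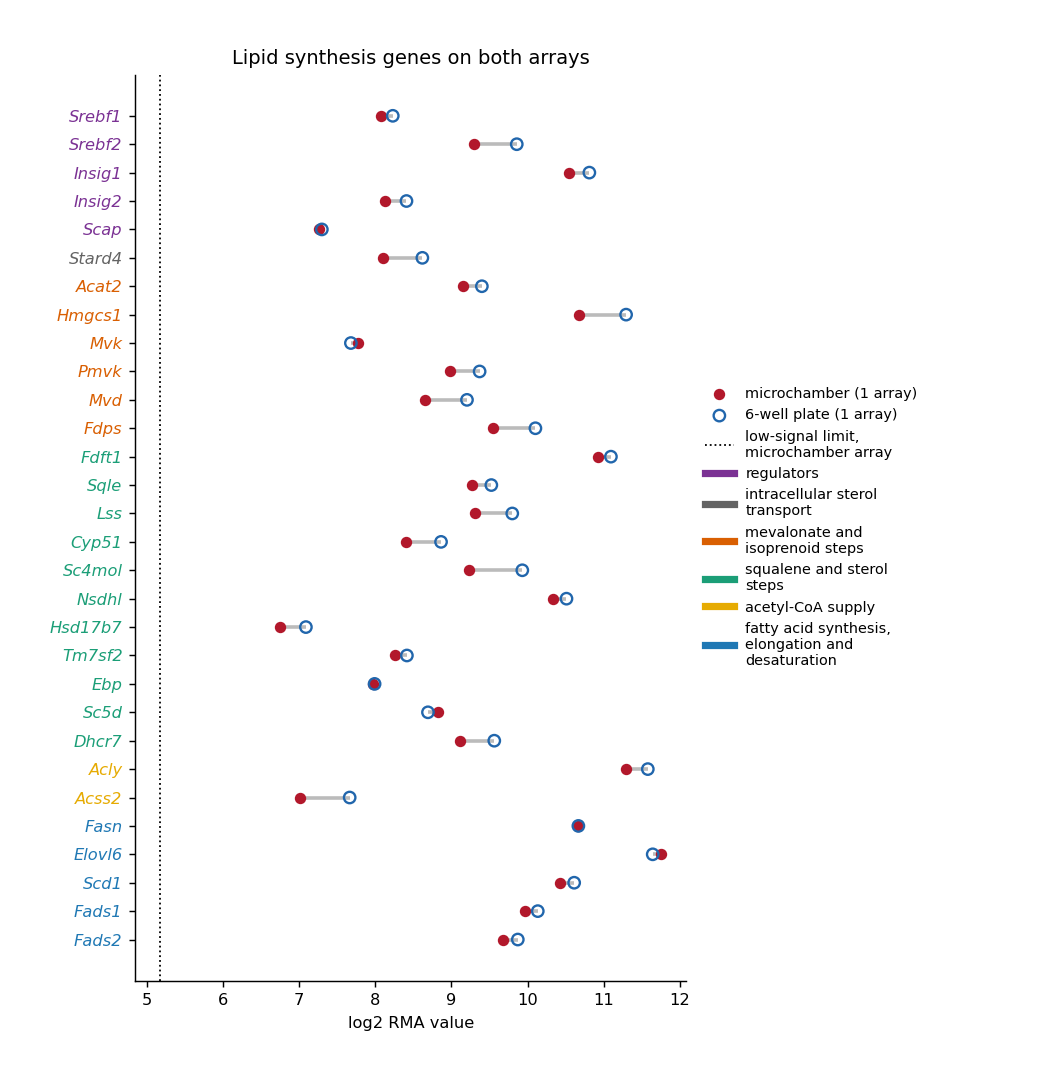
Log2 RMA value of each lipid synthesis gene (x axis) on the microchamber array (filled) and the 6-well plate array (open), 1 array each, ordered by role, with the low-signal limit of the microchamber array dotted. The microchamber point lies left of the plate point for 27 of 30 genes, and the gap is widest for Sc4mol, at 9.24 on the microchamber array and 9.93 on the plate array.

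The sequences before the transcription starts are given for 5 of the genes, because they show the pattern shared by most of these promoters and 2 genes that were not lower. Hmgcs1 is the synthase upstream of mevalonate and Mvd the decarboxylase downstream of it, Sc4mol (current symbol Msmo1) is a sterol methyl oxidase, Mvk is mevalonate kinase, and Elovl6 lengthens saturated fatty acids. Their differences were -0.62 for Hmgcs1, -0.70 for Sc4mol, -0.55 for Mvd, 0.09 for Mvk and 0.11 for Elovl6. Each window is from RefSeq (GRCm38.p6), runs 5′ to 3′ in the direction of the gene and covers 250 bases before and 50 after the start. Windows lie at chr13:119690101-119690400 (plus strand), chr8:64733529-64733828 (minus strand), chr8:122443373-122443672 (minus strand), chr5:114444019-114444318 (plus strand) and chr3:129532136-129532435 (plus strand). Capitals mark CCAAT, the NF-Y motif, or its reverse complement, and the SRE-like motif TCACNCCAC.
Hmgcs1: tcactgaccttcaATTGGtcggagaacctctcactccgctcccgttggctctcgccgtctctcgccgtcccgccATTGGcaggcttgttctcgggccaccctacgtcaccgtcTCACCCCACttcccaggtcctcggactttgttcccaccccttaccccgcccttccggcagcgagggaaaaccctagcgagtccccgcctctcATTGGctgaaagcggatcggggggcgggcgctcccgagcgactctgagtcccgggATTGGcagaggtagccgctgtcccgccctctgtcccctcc
Sc4mol: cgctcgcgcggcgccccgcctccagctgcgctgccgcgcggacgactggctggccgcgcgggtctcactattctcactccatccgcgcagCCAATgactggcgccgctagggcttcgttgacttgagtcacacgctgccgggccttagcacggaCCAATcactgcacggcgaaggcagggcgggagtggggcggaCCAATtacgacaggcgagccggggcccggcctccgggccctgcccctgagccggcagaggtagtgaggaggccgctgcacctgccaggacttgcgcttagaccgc
Mvd: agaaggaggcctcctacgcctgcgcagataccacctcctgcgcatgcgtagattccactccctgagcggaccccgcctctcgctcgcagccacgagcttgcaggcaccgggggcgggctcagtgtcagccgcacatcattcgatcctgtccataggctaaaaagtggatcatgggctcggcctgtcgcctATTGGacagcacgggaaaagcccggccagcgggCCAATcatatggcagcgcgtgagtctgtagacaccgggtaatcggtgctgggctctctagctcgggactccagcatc
Mvk: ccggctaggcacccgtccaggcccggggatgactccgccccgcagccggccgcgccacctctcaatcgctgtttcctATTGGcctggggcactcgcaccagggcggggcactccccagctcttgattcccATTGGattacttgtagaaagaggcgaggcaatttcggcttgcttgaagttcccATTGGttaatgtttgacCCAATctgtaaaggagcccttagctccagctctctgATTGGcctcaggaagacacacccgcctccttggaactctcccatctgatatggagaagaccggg
Elovl6: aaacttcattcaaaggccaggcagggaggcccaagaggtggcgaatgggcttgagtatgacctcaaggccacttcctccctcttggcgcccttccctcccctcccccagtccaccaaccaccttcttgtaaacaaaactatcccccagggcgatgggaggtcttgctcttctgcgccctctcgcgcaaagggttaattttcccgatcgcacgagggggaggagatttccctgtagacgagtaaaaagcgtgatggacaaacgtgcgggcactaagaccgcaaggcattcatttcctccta

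The Hmgcs1 window held 1 SRE-like match, starting 137 bases before the transcription start, and 4 NF-Y matches. The windows of Sc4mol, Mvd and Mvk held 3, 2 and 5 NF-Y matches, and the Elovl6 window held none. RefSeq windows were matched for 24 of the 30 genes, 32 windows in all, and both strands were searched. The 6 genes without a window, Stard4, Fdps, Fdft1, Sqle, Scd1 and Fads1, were not searched for any motif. An NF-Y match was present for 20 of the 24 genes, which is 83.3%, against 41.6% of 12644 genes past the filter with a window. Per window the shares were 65.6% of the 32 windows and 37.4% of all 32851 windows. Median differences were -0.31 for the 20 genes with a match and -0.11 for the 4 without, while over all genes past the filter they were -0.02 with a match and -0.01 without. Mvk had the most matches of the 5 genes shown and was at 0.09. Genes with several windows have more chance of a match.

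The other motifs were also counted in these windows. GGGCGG, the Sp1 motif, was in windows of 21 of the 24 genes (87.5%), against 58.7% of genes past the filter and 35.7% of all windows. Median differences were -0.28 for these 21 genes and -0.01 for the 3 without, so a split by match was not particular to NF-Y. CACGTG, an E-box, was in windows of 5 (20.8%), against 10.5% of genes past the filter and 7.15% of all windows. Its medians were -0.27 for the 5 genes with a match and -0.28 for the 19 without. None of these splits was tested. TCACNCCAC was in the window of 1 gene, Hmgcs1 (4.17%), against 1.52% of genes past the filter and 1.24% of all windows. The shorter CACNCCAC, which lies inside it and was added after that count was seen, was in windows of 3 genes (12.5%), against 7.84% and 6.24%. The CCAAT matches share no letters with the SRE-like match in the Hmgcs1 window. A match is a string of letters and not a bound site, and a window without one may hold other forms of the element.

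**Figure D2:**
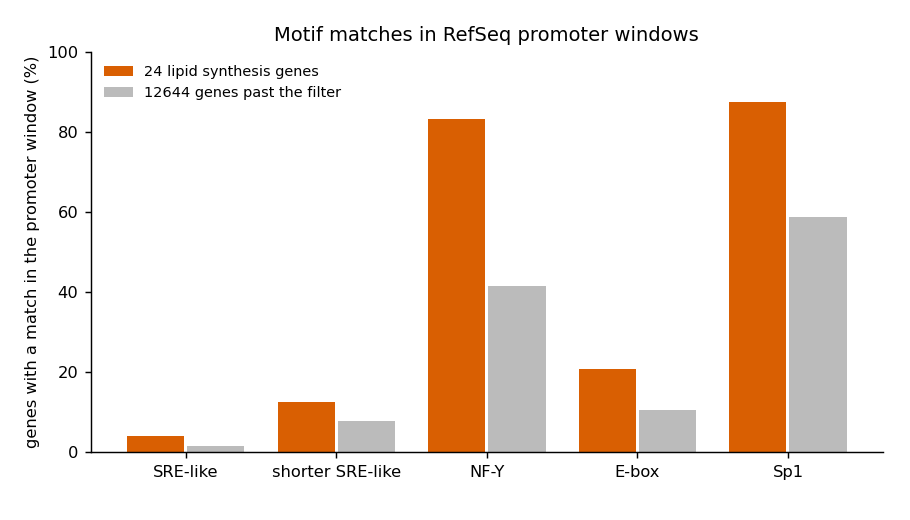
Share of genes (y axis, percent) with at least 1 match to each motif in a RefSeq promoter window, for the 24 lipid synthesis genes with a window (left bars) and for 12644 genes past the filter (right bars). The NF-Y bars stand at 83.3% and 41.6%, and the Sp1 bars at 87.5% and 58.7%.

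Among the regulators, Srebf2 was lowest. Srebf2 encodes SREBP2, the family member that mainly drives sterol genes, and lies on chromosome 15 (82147269 to 82205379, GRCm38). It had 9.29 on the microchamber array and 9.86 on the plate array, a difference of -0.56 or 1.48-fold lower. Only 3.07% of genes past the filter were as low or lower. Srebf1, which encodes the member tied more to fatty acid genes, had 8.07 on the microchamber array and 8.23 on the plate array, a difference of -0.16 that 24.4% of genes matched or passed. The microRNA gene Mir33 lies inside Srebf2 (82198122 to 82198190), and its probe set had 4.82 on the microchamber array and 4.85 on the plate array, both under the low-signal limit.

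The INSIG genes moved by about the same amount. Insig1, itself a sterol-responsive gene, had 10.54 on the microchamber array and 10.81 on the plate array, a difference of -0.27. Insig2, its less sterol-responsive relative, had 8.14 on the microchamber array and 8.41 on the plate array, a difference of -0.28. Both lay only just past 1.2-fold, and both fell short of it when differences were centred on the median of all genes. Scap, the escort, had 7.27 on the microchamber array and 7.30 on the plate array. It is the one gene of the 30 with more than 1 probe set, and these disagreed, with differences of 0.12 and -0.18. Stard4, a carrier of cholesterol between membranes, had 8.10 on the microchamber array and 8.62 on the plate array, which is 1.44-fold lower.

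The mevalonate steps were lower together, apart from the kinase Mvk. Of the 6 genes 5 lay below 0, 4 of them by 1.2-fold or more, and the median was -0.47. Hmgcs1, the synthase that joins acetyl-CoA to acetoacetyl-CoA (chromosome 13, 119690351 to 119708260), had 10.67 on the microchamber array and 11.29 on the plate array. That is 1.54-fold lower, and 2.42% of genes were as low or lower. Mvd, the decarboxylase that yields isopentenyl pyrophosphate, had 8.65 on the microchamber array and 9.21 on the plate array. Fdps, which builds farnesyl pyrophosphate, had 9.54 on the microchamber array and 10.10 on the plate array. The differences of Mvd and Fdps were -0.55 and -0.56, close to that of Hmgcs1.

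The other mevalonate steps differed by less. Pmvk, the second kinase of the route, had 8.98 on the microchamber array and 9.37 on the plate array, which is 1.31-fold lower. Acat2, which makes acetoacetyl-CoA in the cytosol, had 9.16 on the microchamber array and 9.40 on the plate array, a difference of -0.24. Mvk had 7.77 on the microchamber array and 7.68 on the plate array, a difference of 0.09. That is under the within-gene SD of 0.20, so its sign is not read here. The same limit holds for genes that were lower by less than that SD. Mvk therefore lay near 0 while Mvd, which acts in the same route, was lower.

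Of the 11 squalene and sterol genes, 10 lay below 0, 5 of them by 1.2-fold or more, and the median was -0.26. The first enzymes of this stretch differed less from the plate than Lss, which follows them. Fdft1, squalene synthase, had 10.92 on the microchamber array and 11.09 on the plate array, a difference of -0.18. Sqle, the oxygen-using squalene epoxidase, had 9.27 on the microchamber array and 9.52 on the plate array, a difference of -0.26 that fell just short of 1.2-fold. Lss, which closes the sterol rings to give lanosterol, had 9.32 on the microchamber array and 9.80 on the plate array, a difference of -0.48.

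The demethylation steps after lanosterol included the lowest of the 30 genes. Sc4mol (chromosome 8, 64718123 to 64733578), an oxygen-using sterol methyl oxidase, had 9.24 on the microchamber array and 9.93 on the plate array. It was 1.62-fold lower, and 1.62% of genes past the filter were as low or lower. The enzymes around it were also lower, but by less, and for Nsdhl by less than the within-gene SD. Cyp51, the cytochrome P450 that starts the demethylation of lanosterol, had 8.41 on the microchamber array and 8.86 on the plate array, which is 1.37-fold lower. Hsd17b7, a sterol ketone reductase, had 6.75 on the microchamber array and 7.09 on the plate array, which is 1.27-fold lower. Nsdhl, the dehydrogenase that works beside Sc4mol, had 10.33 on the microchamber array and 10.51 on the plate array, a difference of -0.18. Sc4mol and Nsdhl, which act on the same methyl groups, therefore differed unequally from the plate.

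The last sterol steps were split. Dhcr7, the reductase that makes cholesterol from its direct precursor, had 9.11 on the microchamber array and 9.56 on the plate array, which is 1.37-fold lower. Tm7sf2, a sterol reductase earlier in the route, had 8.26 on the microchamber array and 8.42 on the plate array, a difference of -0.16. Ebp, the sterol isomerase, had 7.97 on the microchamber array and 7.99 on the plate array. Sc5d, the oxygen-using desaturase just before Dhcr7, had 8.83 on the microchamber array and 8.69 on the plate array, and its 0.13 was the highest difference of the 30. The difference of Sc5d was still under the within-gene SD of 0.20. Neighbouring enzymes of one route therefore ranged from 1.37-fold lower to near 0.

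**Figure D3:**
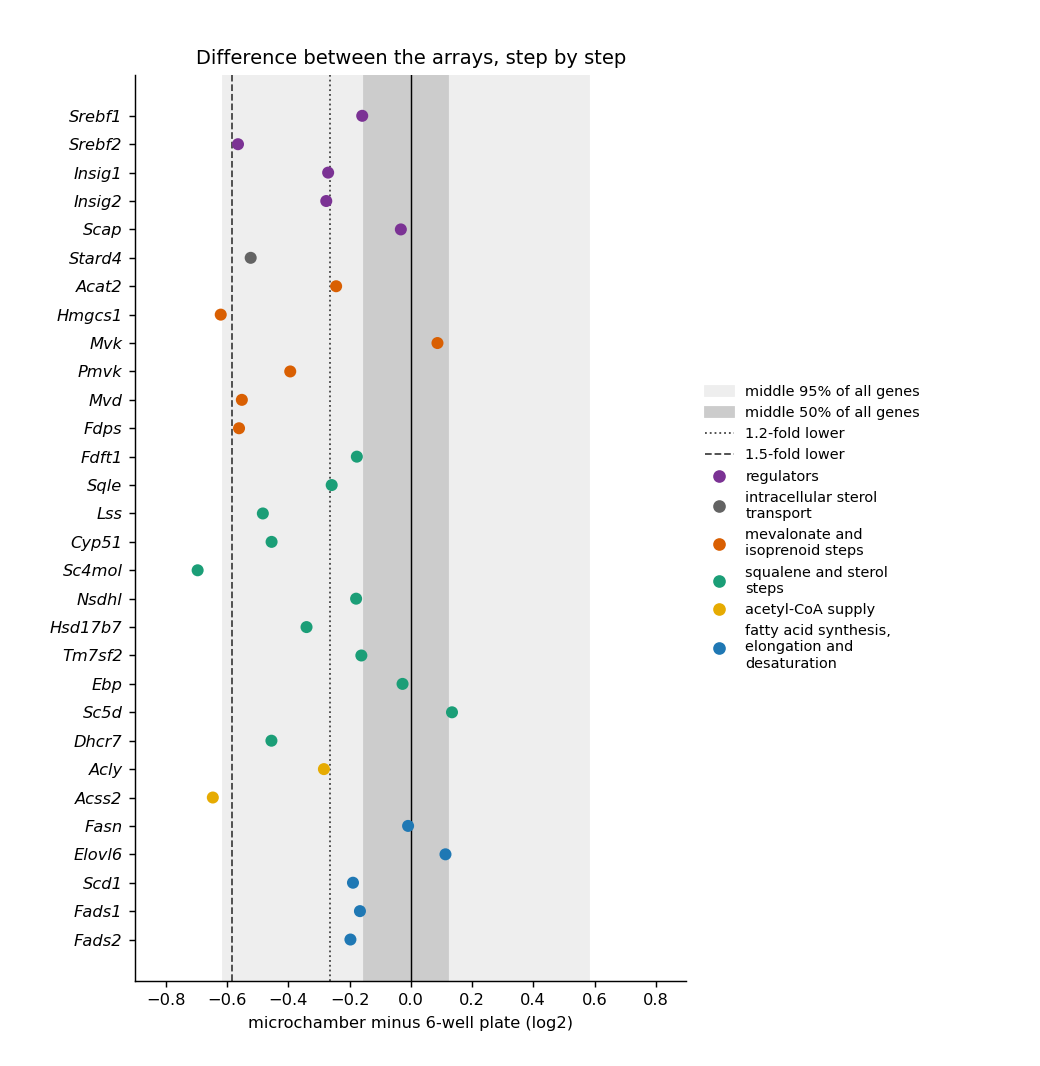
Difference between the arrays (x axis, microchamber minus 6-well plate, log2) for each lipid synthesis gene in order of role, over bands that hold the middle 95% and 50% of all genes past the filter. Sc4mol, Acss2 and Hmgcs1 lie past the 1.5-fold line, and no gene of fatty acid synthesis, elongation or desaturation reaches the 1.2-fold line.

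Both enzymes that supply cytosolic acetyl-CoA were lower. Acss2, which makes it from acetate (chromosome 2, 155518043 to 155562743), had 7.02 on the microchamber array and 7.67 on the plate array. It was 1.57-fold lower, and 2.16% of genes were as low or lower. Acly, which makes it from citrate, had 11.30 on the microchamber array and 11.58 on the plate array, which is 1.22-fold lower. Its difference fell short of 1.2-fold, at -0.25, when a smooth (loess) trend of difference with signal level was removed.

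The fatty acid enzymes themselves differed less. None of the 5 was 1.2-fold lower or higher, and their median was -0.17. Fasn, fatty acid synthase, had 10.66 on the microchamber array and 10.67 on the plate array, a difference of -0.01. Elovl6 had 11.76 on the microchamber array and 11.64 on the plate array. The desaturases lay slightly lower: Scd1, which makes monounsaturated fatty acids, at -0.19, and Fads2 and Fads1, which act in turn on polyunsaturated fatty acids, at -0.20 and -0.17. All of these sizes were at or under the within-gene SD of 0.20. Setting the sides of the pathway together, the 17 mevalonate and sterol enzymes had a median of -0.34 with 9 at least 1.2-fold lower, and the 7 acetyl-CoA and fatty acid enzymes had a median of -0.19 with 2. The difference between those medians was not tested, since genes are not replicates.

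Several of these enzymes consume molecular oxygen. This split, like the other lists, was made with earlier results of these data known. The 7 that do, Sqle, Cyp51, Sc4mol, Sc5d, Scd1, Fads1 and Fads2, had a median of -0.20, and 2 of them were at least 1.2-fold lower. The other 17 enzymes had a median of -0.28, with 9 at least 1.2-fold lower. The oxygen-using group held both the lowest gene, Sc4mol, and the highest, Sc5d.

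Genes of the response to low oxygen were also lower in the microchamber, by more. Of 20 measured on the list used here, 19 lay below 0 and 16 were lower by 1.5-fold or more, and their median was -1.02. Bnip3, a mitophagy receptor induced by low oxygen, had 7.37 on the microchamber array and 10.21 on the plate array. Markers of fibroblasts, the cells used as feeders for stem cells, reached 7.48 on the microchamber array and 7.97 on the plate array, both at Pdgfrb, a growth factor receptor. Of 12 such markers, Lum, Dcn, Postn and Fap were under the low-signal limit on both arrays. Of the other 8, 7 lay below 0 and 4 were at least 1.2-fold lower, and the summed linear signal of all 12 was 831 on the microchamber array and 968 on the plate array. Endoderm markers, 11 in number, had a median of -0.01 and a summed linear signal of 1174 on the microchamber array and 935 on the plate array, with Cubn, an endocytic receptor, at 1.48. Without Cubn the other 10 summed to 794 on the microchamber array and 798 on the plate array. The 12 pluripotency markers had a median of 0.24, with 10 above 0 and a summed linear signal of 28241 on the microchamber array and 24646 on the plate array. The part of oxygen, of fibroblasts or of any shift in pluripotent cells in the lipid result was not tested.

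**Figure D4:**
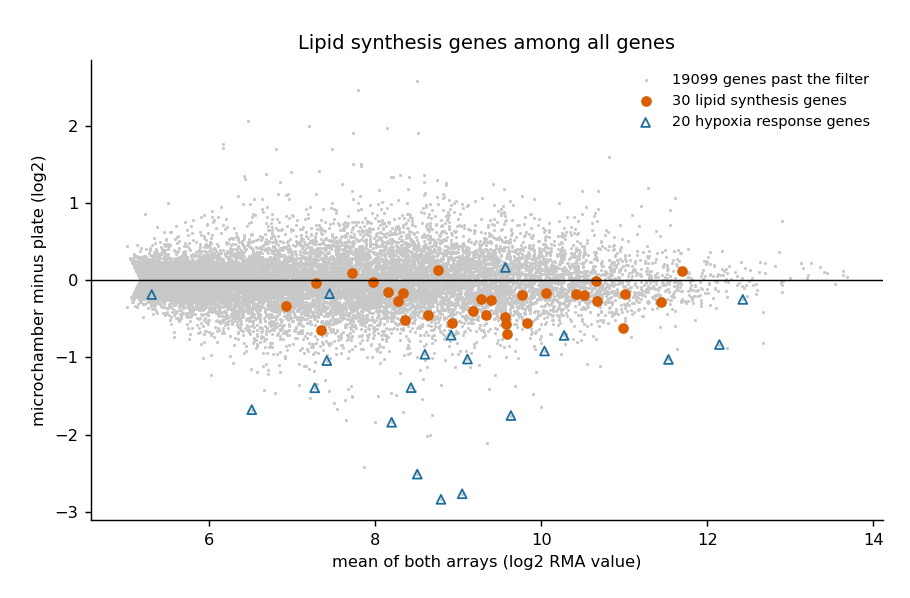
Difference (y axis, microchamber minus plate, log2) against the mean of both arrays (x axis, log2 RMA value) for 19099 genes past the filter (small points), the 30 lipid synthesis genes (discs) and 20 hypoxia response genes (triangles). The lipid genes lie between -0.70 and 0.13 over the middle and upper range of signal, and the hypoxia genes reach -2.84.

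Other genes of lipid metabolism showed where the pattern extended and where it did not. Beside the counts of these lists, 14.1% of all genes past the filter were at least 1.2-fold lower and 11.5% at least 1.2-fold higher. Among genes with either array at or above the median, 20.3% were at least 1.2-fold lower. Of 12 measured genes in the rest of sterol synthesis and its regulation, 9 lay below 0 and the median was -0.15, with 4 lower and 1 higher by 1.2-fold or more. On the brightest probe set of each gene that median was -0.10. Rnf145, a sterol-responsive ubiquitin ligase, had 8.64 on the microchamber array and 9.32 on the plate array, which is 1.59-fold lower. Acat1, the mitochondrial acetoacetyl-CoA thiolase, was at -0.56 and Lbr, a nuclear envelope protein that also reduces sterols, at -0.40. Against these, the proteases that cut SREBPs were above 0, with Mbtps1 at 0.31 and Mbtps2 at 0.19. Idi1, which isomerises isopentenyl pyrophosphate, was read only by a probe set shared with the gene Gm13502, at 8.81 on the microchamber array and 8.96 on the plate array.

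The rest of fatty acid synthesis lay lower, with 17 of 19 genes below 0, 7 at least 1.2-fold lower and a median of -0.21. Signal was weaker in this list, with a median of 6.81 on the microchamber array against 9.20 for the 30 genes. Of the 7, Mlxipl, Acacb, Scd3, Fads3 and Elovl3 lay between 5.23 and 6.48 on that array, nearer the low-signal limit of 5.18. Elovl1 had 7.71 and Slc25a1 9.71 there. Mlxipl, the carbohydrate-responsive factor ChREBP, had 6.12 on the microchamber array and differed from the plate array by -0.88. It was 1.84-fold lower, which is further than any of the 30 genes. Slc25a1, the carrier that exports citrate from mitochondria, was at -0.47, and Acacb, an acetyl-CoA carboxylase, was at -0.40. The main cytosolic carboxylase Acaca was read only by a probe set shared with LOC100503180, at 8.51 on the microchamber array and 8.90 on the plate array. The elongases Elovl5, Elovl2 and Elovl1 were at -0.20, -0.22 and -0.28.

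Isoprenoid side branches, which draw on the same precursors, were not lower as a list. The median of 11 genes was 0.04, with 4 higher and 2 lower by 1.2-fold or more, against 11.5% and 14.1% of all genes. Dhdds, of dolichol synthesis, was at 0.41, and Ggps1, which makes geranylgeranyl pyrophosphate, had 9.09 on the microchamber array and 8.75 on the plate array. Fnta, a subunit of the prenyl transferases, was at 0.34.

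Sterol efflux and storage genes went both ways around a median of -0.04. By 1.2-fold or more, 3 of 15 were higher and 3 lower, against 11.5% and 14.1% of all genes. Abca1, the pump that exports cholesterol and a target of the oxysterol-sensing LXR receptors, had 8.79 on the microchamber array and 7.75 on the plate array. It was 2.06-fold higher, and 0.309% of genes lay further up. Apoe, a lipoprotein component and another LXR target, had 9.09 on the microchamber array and 8.57 on the plate array. Mylip, also an LXR target, went the other way, with 7.40 on the microchamber array and 8.03 on the plate array. Nr1h2, which encodes an LXR, was at 0.25, and Npc2, which moves cholesterol out of lysosomes, was at 0.44. The LXR targets named here therefore shared no direction.

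In lipid storage and use, 11 of 12 uptake and droplet genes lay below 0, 6 of them by 1.2-fold or more, and the median was -0.26. Pnpla2, the lipase of lipid droplets, was at -0.53, and Hilpda, its hypoxia-induced inhibitor, had 7.01 on the microchamber array and 7.51 on the plate array. The droplet coats Plin3 and Plin2 were at -0.35 and -0.24. Fatty acid oxidation had a median of -0.11, with 6 of 19 lower and 2 higher by 1.2-fold or more, among them Acadvl, a dehydrogenase of long chains, at -0.52 and the carnitine carrier Slc25a20 at 0.39. In phospholipid and triglyceride synthesis 8 of 16 genes lay below 0 and the median was -0.03, with 6 lower and 3 higher by 1.2-fold or more. Over all genes past the filter, the shares past 1.2-fold were 14.1% lower and 11.5% higher. The 4 genes furthest from 0 were Lpin1 and Lpin3, phosphatidate phosphatases, at -0.61 and -0.40, Cds1, which makes CDP-diacylglycerol, at -0.49, and Agpat2, an acyltransferase, at 0.42.

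**Figure D5:**
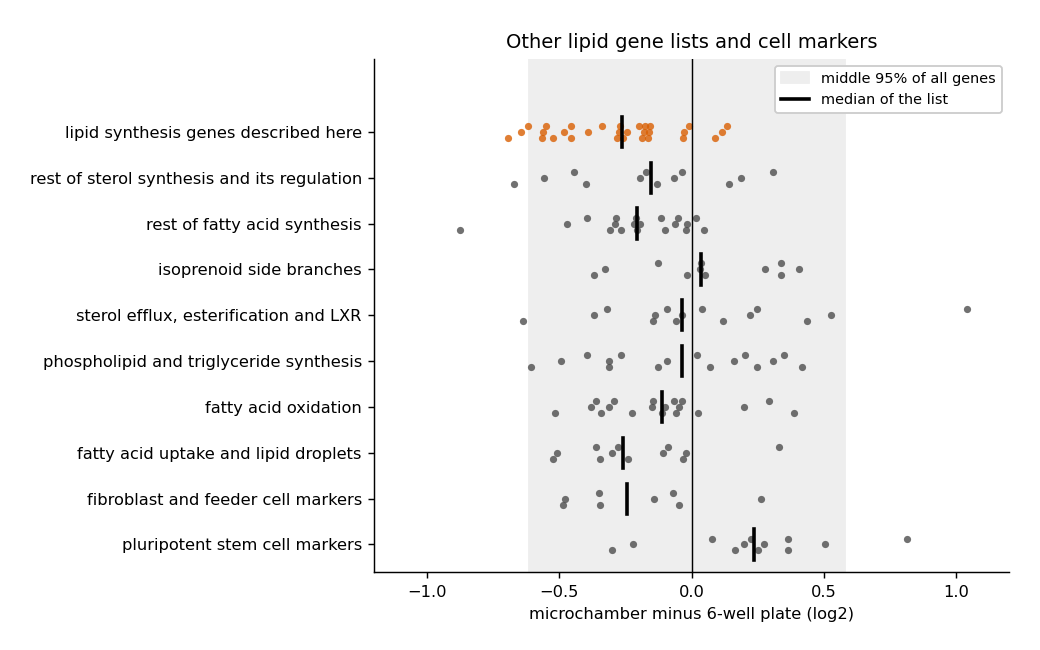
Difference (x axis, microchamber minus 6-well plate, log2) of each gene past the filter in 10 lists, 1 point a gene, with the list median as a black bar and the middle 95% of all genes shaded. The medians are -0.26 for the lipid synthesis genes, 0.04 for isoprenoid side branches and -0.04 for sterol efflux genes, where Abca1 stands apart at 1.04.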

How the data were processed

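Per the series design text, the authors corrected probe intensities for background, summarised and normalized them with RMA, and took log2, so the deposited values are log2 values. That text names a filter on raw signal, and RMA gives both arrays 1 distribution. Per the submitters' processing notes, Affymetrix Expression Console 1.4.1 and Transcriptome Analysis Console 3.0 were used. Per the file headers the annotation was for mm10, the build of the RefSeq coordinates (GRCm38). The deposited fold, a ratio without direction, was not used. The deposited log2 fold change equalled plate minus microchamber within 1e-05, and both deposited tables held the same log2 values.

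Of 33793 probe sets, 24708 with 1 symbol were used, and those of 1 gene were averaged (Python 3.11.15, pandas 2.3.3). Differences were counted below 0 and past 1.2-fold and 1.5-fold. Counting code was checked on simulated data. The number of arrays, 1 per group, limits precision. The 30 genes and all lists were chosen with earlier results of these data known. Named are all 30 genes, genes of the 2 lists for the rest of either synthesis route, up to 4 genes with the largest difference in each other list, and 8 fixed by name. Outside this rule, Lum, Dcn, Postn, Fap and Mir33 were named after their values were seen. The alternatives tried were the median as filter, no filter, centring, removal of a loess trend (span 0.3, statsmodels 0.14.6), the brightest probe set, shared probe sets, the other table and a 2-fold threshold. Probe sets with several symbols, or none, were otherwise left out.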

Additional observations from a re-analysis of the deposited data

How the results depend on the processing

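No paired analysis was possible because each group has 1 array. Under the 7 other ways of filtering, centring, averaging or reading the values, the 30 lipid synthesis genes kept a median difference between -0.26 and -0.24, and 25 to 27 of them lay below 0. Most of these ways could not move the 30 genes. Both filter changes, the shared probe sets and the other table left all 30 differences unchanged, and the brightest probe set could change only Scap. The largest move of a gene was 0.01 under centring and 0.04 without the loess trend. Between 12 and 15 of the 30 were at least 1.2-fold lower, with 13 after centring and 12 after the loess trend was removed. The cause was not tested. The count at least 1.5-fold lower was 3 throughout. With the threshold at 2-fold, 0 of the 30 were lower. Fasn turned to 0.00 after centring and to 0.02 without the loess trend, and Scap to 0.01 without the trend and to 0.12 on its brightest probe set. The medians of the other lists kept their sign under these alternatives, except the endoderm markers, at 0.00 after centring and 0.04 both without the trend and under the median filter, the sterol efflux list, at 0.03 under the median filter, and phospholipid and triglyceride synthesis, at 0 with shared probe sets. The rest of sterol synthesis had a median of -0.10 on the brightest probe set, against -0.15, and the fibroblast markers one of -0.06 with no filter, against -0.25. The medians nearest 0, of sterol efflux and phospholipid synthesis, came to -0.02 both after centring and without the trend. With the shorter SRE-like motif, chosen after seeing the data, 3 genes had a match. Depth does not apply to arrays. All 30 genes lay over the median of probe sets on the microchamber array (6.10), and 1 array per culture limits every statement to these arrays.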
